A study of Dahlia pinnata with 6 samples.

Results

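The microRNA names miR170 and miR171 were followed in bicolor dahlia petals, comparing the pigmented red region with the white region that lacks pigment. They are 2 of the 116 microRNA names in a table of 47083 rows of small RNA counts, and were chosen by their exact names. All other rows of the table are contigs of a Trinity transcript assembly that carry no gene names. The plants were of the cultivar Yuino (Dahlia pinnata in the organism label, D. variabilis in the growth notes), grown in a greenhouse. Each part was dissected from the petal and gave 3 small RNA libraries, and the parts differ in pigmentation while sharing genotype and growth. The study asked whether flavonoids, the pigment family of the red part, inhibit DCL4, the Dicer-like enzyme that produces 21-nt siRNAs. Whether the 3 libraries of each region derive from different plants is not stated in the labels. The p-values set the difference between the parts against variation among these libraries, which may be technical. edgeR's estimate of that variation also draws on the other rows. The labelled petal parts could not be checked against marker genes, because no contig carries a gene name.

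The miR171 family is among the most widely conserved of land plants, and its mature sequences are cut from hairpin precursors by DCL1, not by DCL4. In Arabidopsis, miR170 and miR171 have near-identical mature sequences and direct cleavage of transcripts of the HAM group of GRAS transcription factors. HAM genes keep shoot meristem cells undifferentiated, and in Arabidopsis they also act on chlorophyll synthesis and branching. The HAM transcripts of dahlia were not analysed here. Because the names are so close in sequence, a read could fit either, and the split of reads between them depends on how the authors assigned reads, which is not given in the sources used here. No microRNA name in the table exceeds 6 characters; reads of families with longer numbers, if these were cut to fit, would be counted under either name.

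The libraries held between 3277753 and 3662222 tabulated reads, and 7001 rows, both names among them, passed the filter on low counts. Normalised counts here mean CPM over the rows tested, after TMM scaling, which sets libraries to a common middle. The TMM factors lay between 0.98 and 1.10 except in white replicate 2, where the factor was 0.84, which raises every normalised count of that library. In whole petal tissue, fewer cells of a type and less RNA per cell cannot be told apart.

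miR171 was the more abundant name in every library. It had 3604, 1521 and 2983 reads in red replicates 1, 2 and 3, and 1410, 1415 and 1390 reads in white replicates 1, 2 and 3. Red replicates 1 and 3 were high, and red replicate 2 lay near the white libraries. As normalised counts, miR171 stood at 929, 442 and 872 in red and at 419, 510.5 and 413 in white. On this scale the parts overlapped, because red replicate 2 lay below white replicate 2. miR170 had 1373, 596 and 1062 reads in red replicates 1, 2 and 3, and 493, 497 and 490 reads in white replicates 1, 2 and 3. Its normalised counts were 354, 173 and 310.4 in red and 146, 179 and 146 in white. The order of the libraries within red was the same as for miR171, and the parts again overlapped only through red replicate 2 and white replicate 2.

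**Figure D1:**
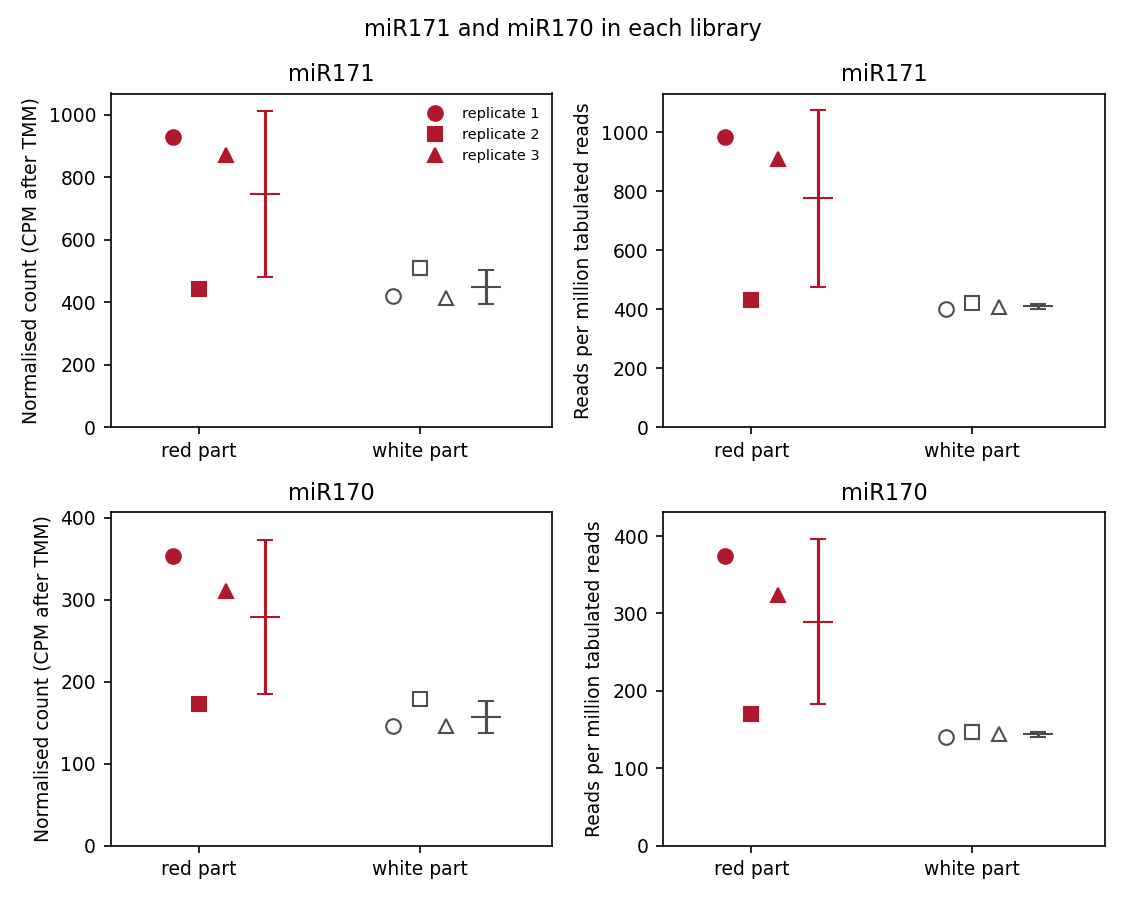
miR171 (top) and miR170 (bottom) in the 3 red and 3 white libraries, as normalised counts (left) and as CPM of all tabulated reads (right); symbols mark replicate numbers, and bars show the mean ± SD of 3 libraries. Red replicate 2 sits near the white libraries in all 4 panels, below white replicate 2 on the left and above it on the right.

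Means were lower in white for both names, but neither passed the test across all rows. miR171 averaged 748 ± 266 normalised counts in the red part against 448 ± 54.6 in the white part (SD, n = 3 each). Its log2 fold change was -0.74 ± 0.27 SE, with a 95% interval of -1.36 to -0.12 before any adjustment and an adjusted p of 0.31 by edgeR's quasi-likelihood test. miR170 averaged 279 ± 94.3 in the red part against 157 ± 19.2 in the white part (SD, n = 3 each). Its log2 fold change was -0.83 ± 0.24 SE, with an unadjusted 95% interval of -1.37 to -0.29 and an edgeR adjusted p of 0.17. In the same fit 1.06% of the 7001 tested rows passed in either direction and 0.528% passed as lower in white, so 0 of 2 names passed against a small background. With the replicate number as a block, 2.59% of rows passed as lower in white, and still neither name.

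Counted as one, the family gave the same picture, as the sum holds both rows already tested and adds no further evidence. The summed normalised counts were 1284, 615 and 1183 in red and 565, 690 and 559 in white. Their average was 1027 ± 360.1 in the red part against 605 ± 74.0 in the white part (SD, n = 3 each). The log2 fold change of the sum was -0.76 ± 0.26 SE, with an adjusted p of 0.28 by edgeR. The sum does not depend on how reads were split between the names, provided that no read was counted under both or dropped for fitting both. The handling of such reads is not given in the sources used here.

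Taken by replicate number, the difference was large in replicates 1 and 3 and near 0 in replicate 2. For miR171 the log2 difference in normalised counts, white minus red, was -1.15 in replicate 1, 0.21 in replicate 2 and -1.08 in replicate 3. The linear ratio of red to white was 2.22 in replicate 1 and 2.11 in replicate 3, and 0.87 in replicate 2. For miR170 the log2 differences were -1.27, 0.05 and -1.09 in replicates 1, 2 and 3. The linear ratios of red to white were 2.42, 0.97 and 2.13. As normalised counts, both names were thus higher in red in 2 of 3 same-numbered pairs. The sign in replicate 2 turned with the scaling: as CPM of all tabulated reads, red was higher there too, by a log2 difference, white minus red, of -0.04 for miR171 and -0.20 for miR170.

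The other conserved families also differed by replicate number in normalised counts. A list of 35 plant families was written with earlier results of these data known; 28 were in the table, 22 were tested and 15 averaged at least 100 reads. Of these 15, 11 were lower in white in replicate 1, 5 in replicate 2 and 12 in replicate 3. Their median log2 differences were -0.42, 0.19 and -0.55. The values for replicate 2 rest on TMM scaling, which raised every normalised count of white replicate 2. As CPM of all tabulated reads, miR396, miR156, miR399, miR403 and both members were instead lower in white there. miR858, miR167 and miR395 remained higher, and miR319 was level, at 28.16 CPM in red and 28.20 in white. The signs seen for miR170 and miR171 in normalised counts, lower in white in replicates 1 and 3 and higher in replicate 2, occurred in 6 of the 15 families. The others were miR319, miR399, miR403 and miR858. On the CPM scale only miR858 clearly kept these signs, with miR319 level in replicate 2. The share of all tested rows with these signs was not taken, so the count is a description.

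**Figure D2:**
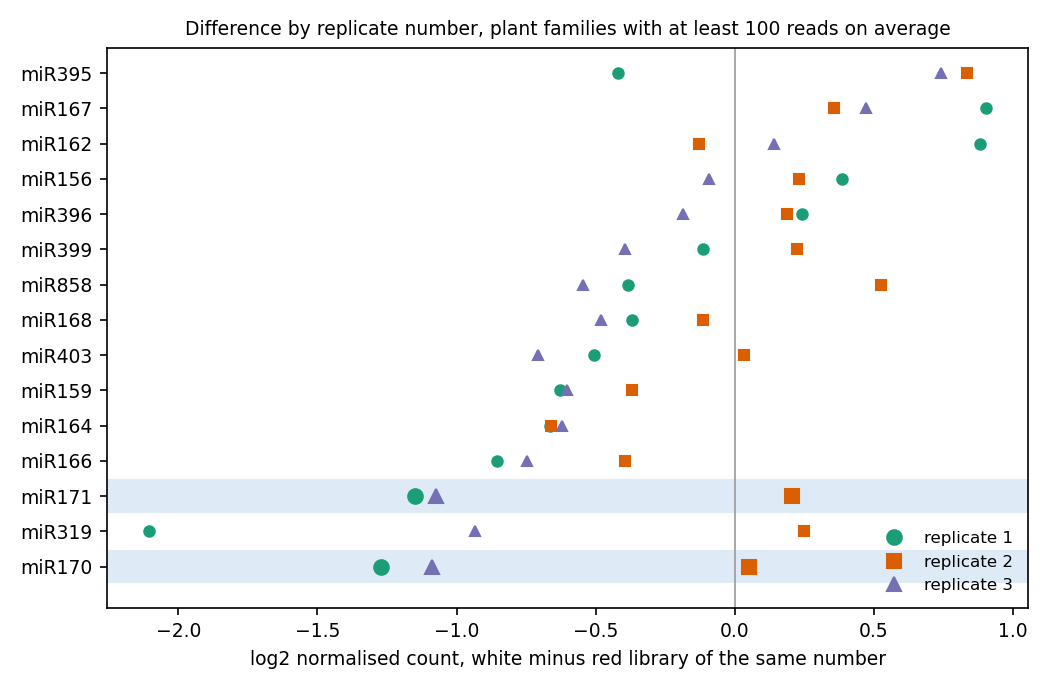
Log2 difference in normalised counts between the white and the red library of the same number, for the 15 plant families averaging at least 100 reads, ordered by fitted log2 fold change; symbols mark replicate numbers and shading marks miR170 and miR171. For both shaded names replicates 1 and 3 lie below -1, and replicate 2 lies at 0.05 and 0.21.

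The wide spread of the names in red lay in red replicate 2. Relative to the mean of red replicates 1 and 3, its normalised count was 0.49 for miR171 and 0.52 for miR170. The median of this ratio over all 7001 tested rows was 1.00, and 2.67% of rows had a lower ratio than miR171 and 3.49% a lower one than miR170. Among the 15 plant families, miR395 (0.41) and miR399 (0.47), both regulators of nutrient uptake, were lower still, and miR858 stood at 0.56. The ratio went the other way for miR156 (1.64), which targets SPL genes, and for miR167 (1.95), which targets auxin response factors. In all, 10 of the 15 families were below 1 and 5 above. What sets this library apart was not tested.

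Without red replicate 2, both names passed as lower in white. miR171 then had a log2 fold change of -1.01 ± 0.13 SE and miR170 one of -1.08 ± 0.14 SE (edgeR adjusted p = 0.0010 for each). In that fit 1.27% of 7848 tested rows passed as lower in white. With replicate 2 left out of both parts the log2 fold changes were -1.11 for miR171 and -1.18 for miR170 (edgeR adjusted p = 0.0039 and 0.0041, n = 2 libraries a part), and 0.677% of rows passed as lower. Leaving out any other single library passed neither name, with edgeR adjusted p from 0.37 to 0.59 for miR171 and from 0.21 to 0.44 for miR170. In those 5 fits 0.201% to 0.522% of rows passed as lower in white, a smaller share than without red replicate 2. Red replicate 2 was singled out by its values, so the fit without it describes the other libraries and does not replace the test on all 6.

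**Figure D3:**
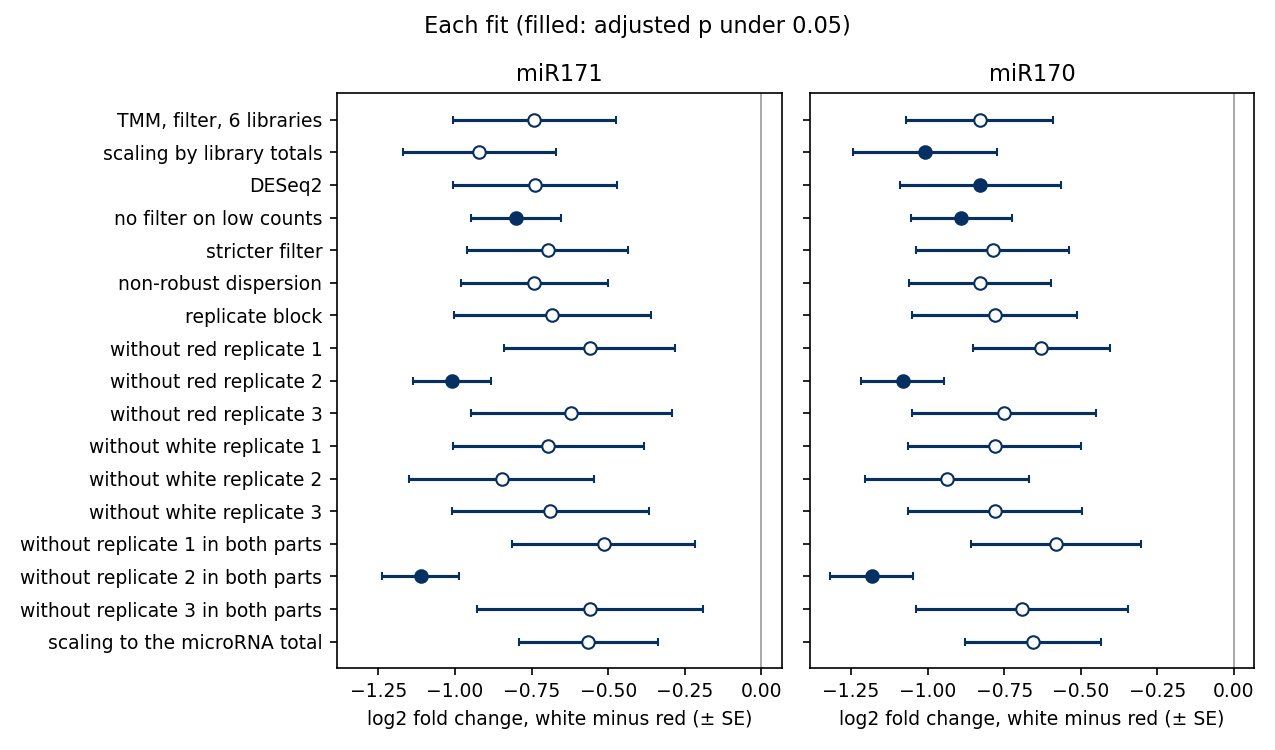
Log2 fold change, white minus red, of miR171 and miR170 in each fit, with bars of 1 SE; filled points have an adjusted p under 0.05. All values lie below 0, and the fits without red replicate 2 have the lowest values and the shortest bars.

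Scaling moved the size of the difference and, for miR170, the call. As CPM of all tabulated reads, miR171 stood at 984, 433 and 910.1 in red and at 401, 420.0 and 408 in white. On this scale each red library lay above each white library, for miR170 as well, at 375, 170 and 324.0 in red and 140.4, 148 and 144 in white. Of the tested rows, 14.3% were separated in this direction as CPM of all tabulated reads and 8.84% were so as normalised counts. Scaled by library totals, miR171 had a log2 fold change of -0.92 (edgeR adjusted p = 0.083) and miR170 one of -1.01 (edgeR adjusted p = 0.036), and 1.54% of rows passed as lower. DESeq2 also passed miR170 and not miR171 (adjusted p = 0.048 and 0.11), with 0.7% of 7001 rows passing as lower. That share includes 3937 rows whose adjusted p was undefined and which could not pass, so it is low as a background. With no filter on low counts edgeR passed both names (adjusted p = 5.7e-05 for miR170 and 3.9e-05 for miR171), with 0.272% of 47083 rows passing as lower. The SE of miR171 was then 0.15, against 0.27 with the filter, although its counts were the same. edgeR estimates the spread of a row partly from the other rows, and 47083 rows entered here against 7001 with the filter. These adjusted p-values therefore do not rest on the spread of the red libraries alone, and are given as a description. The cause of the smaller SE was not tested. Scaled to the summed microRNA reads, the difference was smaller and neither name passed: miR171 had -0.56 and miR170 had -0.66 on the log2 scale (edgeR adjusted p = 0.26 and 0.16). In that fit 0.271% of rows passed as lower in white and 1.93% in either direction, and 32.4% of rows had lower values in white. The microRNA total was itself lower in each white library, at 124111 to 131329 reads, than in each red one, at 158456 to 174240. Dividing by it therefore shrinks a difference that is lower in white. Scaling by library totals moved the median log2 fold change over all rows tested from -0.01 to -0.16. Relative to the median of each fit, miR171 lay at -0.73 with TMM, -0.76 with library totals and -0.74 with scaling to the microRNA total, and miR170 at -0.82, -0.85 and -0.83. Subtracting the median removes a shift common to all rows by construction, so these values say only where the names lay among the rows.

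The white libraries were alike to a degree that depended on the scaling. The counts of miR171 in white had an SD of 13.2 reads around a mean of 1405, where counting error alone gives an SD of 37.5 reads. For miR170 the SD was 3.51 reads around a mean of 493, against 22.2 reads from counting error. After TMM scaling the coefficient of variation of each name in white was 12.2%, and it was 2.29% for miR171 and 2.48% for miR170 as CPM of all tabulated reads. In red the coefficient of variation of normalised counts was 35.6% for miR171 and 33.8% for miR170, against a median of 22.2% over the 15 plant families. The white median was 12.4%, so both names varied more than the middle family in red and about as much as it in white.

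The ratio between the names hardly changed from library to library. There were 0.38, 0.39 and 0.36 miR170 reads per miR171 read in red replicates 1, 2 and 3. The white libraries had 0.350, 0.351 and 0.353. The 95% Wilson intervals, which cover counting error only, ran from 0.356 to 0.431 in red replicate 2, the highest, and from 0.316 to 0.387 in white replicate 1, the lowest, and so overlapped. The mean was 0.376 ± 0.018 in the red part against 0.351 ± 0.001 in the white part (SD, n = 3 each). Each red library lay above each white one, giving an exact permutation p of 0.1, two-sided and the smallest possible for 3 libraries against 3. Adjusted over the 2 measures taken per library, it was 0.2. Red replicate 2, in which both names were low, had the highest ratio, close to that of red replicate 1. Without it the difference in log2 ratio, white minus red, was -0.07, against -0.10 with all libraries. Over the 6 libraries the SD of the log2 ratio was 0.070, the smallest among the 105 pairs of the 15 plant families. The next smallest was 0.157, for miR159 and miR168, and the median was 0.548. Families with fewer reads have more counting error in such ratios. How reads were assigned between names this close in sequence can itself set their ratio. This was not tested, so the ranking is a description.

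**Figure D4:**
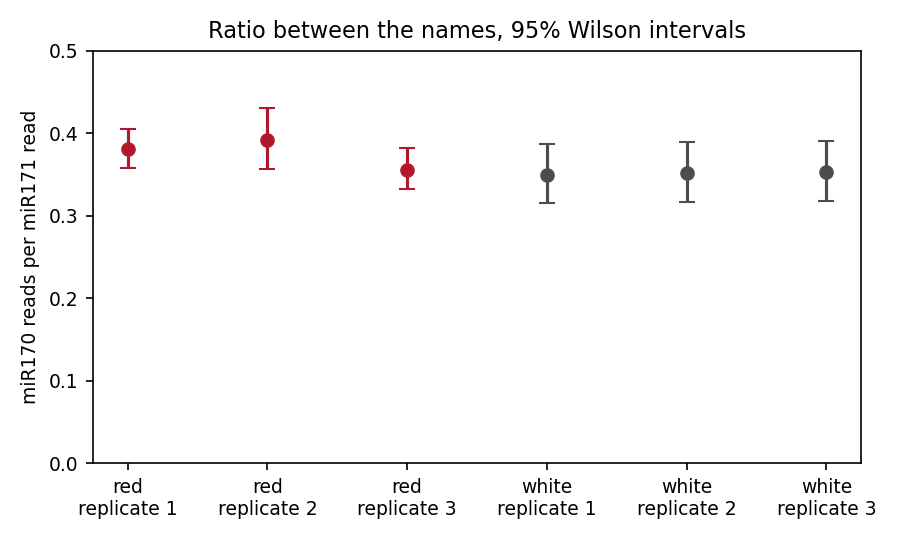
miR170 reads per miR171 read in each library, with 95% Wilson intervals for counting error. The ratio lies between 0.350 and 0.392 in all 6 libraries.

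Within the microRNA reads, the family took a smaller mean share in white, although the microRNA total was itself lower in each white library. The 2 names held 2.86%, 1.34% and 2.47% of all microRNA reads in red replicates 1, 2 and 3, and 1.45%, 1.47% and 1.51% in white. The mean share was 2.22% ± 0.79 in the red part against 1.48% ± 0.03 in the white part (SD, n = 3 each). An exact permutation test gave p = 0.4, two-sided, and 0.4 adjusted over the 2 measures. The difference of -0.74 percentage points, white minus red, was -0.43 without red replicate 1 and -1.19 without red replicate 2. Red replicate 2 was the lowest of all 6 libraries on this scale. As a share of all tabulated reads the means were 0.107% ± 0.041 and 0.0554% ± 0.0013, and no white library reached any red one (p = 0.1 by the exact permutation test). Without miR159 and miR166, abundant names with lower means in white, in the denominator, the shares were 4.14% ± 1.66 and 2.25% ± 0.09, for red and white in that order (p = 0.1 by the exact permutation test). Taking out names that are lower in white shrinks the red denominator more. The wider difference in this share therefore follows from the choice of names and is no further evidence.

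In the order of levels over the 22 tested plant families, miR171 ranked 8 in red and in white, and miR170 ranked 10 in red and 12 in white. These are normalised counts per name, with no correction for length, which is close to equal among mature microRNAs. Next above miR171 stood miR167 and miR156, and next below it miR403, which targets AGO2, and miR168, which targets AGO1. In red, miR171 ranged from 442 to 929 and overlapped miR167, which ranged from 575 to 1202. In white, miR171 ranged from 413 to 510.5 and lay apart from miR167, which ranged from 912 to 1539, and from miR403, which ranged from 236 to 286. miR170 overlapped miR168 in red, where miR168 ranged from 263 to 293. In white, miR170 ranged from 146 to 179 and lay below miR168, at 203 to 254. miR395, next below miR170 over all libraries, ranged from 75.6 to 425 and overlapped it in both parts, and miR164, the next, reached at most 51.1.

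Among the 22 families, miR170 had the second lowest and miR171 the fifth lowest log2 fold change. Of the 20 other families, 13 had lower and 7 higher values in white, with a median log2 fold change of -0.21, while the median over all tested rows was -0.01. One of the 20, miR166, passed as lower and 0 passed as higher by edgeR's test, with 1.06% of all rows passing in either direction. The family list holds names that earlier results had already shown to be lower in white, so its median is a description.

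Among microRNA names, the pattern of miR171 over the 6 libraries was matched most closely by that of miR170. Likeness was measured as the mean absolute difference in log2 normalised counts after each row's own mean over the 6 libraries was removed. It was 0.059 for miR170, against a median of 0.514 over the 7000 other tested rows, and 1 row, a contig, lay nearer, at 0.019. The next microRNA names were miR394 (0.194), a regulator of an F-box gene of the shoot meristem in Arabidopsis, miR166 (0.204), which targets HD-ZIP III genes, and miR403 (0.222). Their log2 fold changes were -0.84 ± 0.28 SE for miR394, -0.67 ± 0.12 SE for miR166 and -0.41 ± 0.16 SE for miR403, and only miR166 passed (edgeR adjusted p = 0.21, 0.022 and 0.29). That of miR166 no longer passed when red replicate 1, white replicate 1 or white replicate 3 was left out (edgeR adjusted p = 0.058, 0.084 and 0.107). Red replicate 2 was the lowest red library for each of these 3 names, as it was for both members, but it lay less far down: its centred log2 value was -0.02 for miR394, 0.13 for miR166 and -0.10 for miR403, against -0.35 for miR171 and -0.24 for miR170.

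**Figure D5:**
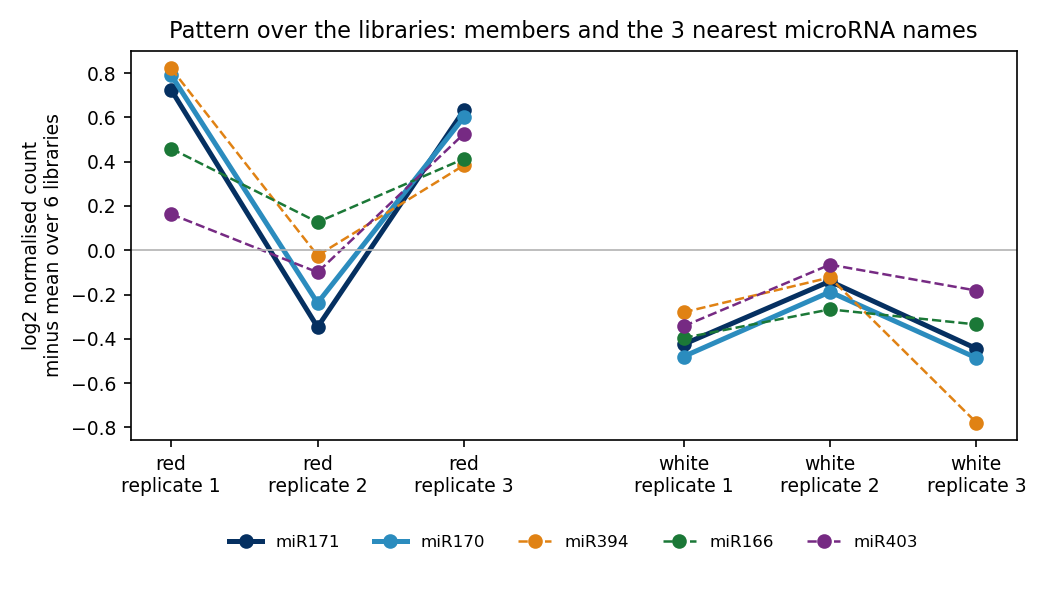
Log2 normalised counts minus each name's mean over the 6 libraries, for miR171, miR170 and the 3 microRNA names with the most similar pattern; lines join the libraries of a part for reading only. miR171 and miR170 run together, at 0.72 and 0.79 in red replicate 1 and at -0.35 and -0.24 in red replicate 2.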

How the data were processed

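Per the labels' protocols, Trizol-extracted total RNA was made into small RNA libraries with a kit of the NEBNext line. The authors deposited counts, whole numbers of reads per row with no normalisation. Tools named by the submitters' processing notes are cutadapt and Bowtie2; settings, the read lengths counted and the handling of reads with several matches are not given in the sources used here. Libraries were grouped and numbered by sample title. White was compared with red on the whole table with edgeR 4.0.16 under R 4.3.3, using the quasi-likelihood test, TMM scaling, a minimum count of 10 in the filter, robust dispersion, Benjamini-Hochberg adjustment over every row tested and 0.05 as threshold. SEs were obtained as the absolute log2 fold change over the root of its F statistic, and log2 values per library used a prior count of 2. The edgeR step was run on counts simulated from each row's mean over all libraries and the fitted dispersions, with changes placed in some rows. No result here rests on that run. Such a run cannot show how the test handles a single deviating library. The ratio and the share, with 1 value in each library, were compared by exact permutation tests (scipy 1.17.1). Rows named were both members, the 3 microRNA names most like miR171 and the neighbours of each member in level; miR170, miR171, the list of plant families and the tests were chosen with earlier results of these data known. Every row has at least 1 read in red replicate 1, while the other libraries have 11093 to 12808 rows at 0, so a selection on that library is built into the table; both names have at least 490 reads in every library.

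The titles number the libraries of both parts 1 to 3. With the mean of each part subtracted, log2 values of same-numbered libraries correlated across tested rows at 0.20, 0.29 and 0.20, all above the limit of 0.1 for treating numbers as pairs, and the pairing rests on these correlations and the titles. The test was planned without the block. Library-total scaling, DESeq2 1.42.0, no filter, at least 50 reads in 3 libraries, non-robust dispersion, the block, and fits leaving out each library or replicate number were the alternatives. Scaling to the summed microRNA reads was added after seeing the data.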

Additional observations from a re-analysis of the deposited data

How the results depend on the processing

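All fitted log2 fold changes of miR171, miR170 and their sum stayed below 0 in the 16 alternatives run on each. miR171 and the sum passed in 3 of them and miR170 in 5. These passes include the fit with no filter on low counts, in which the spread was estimated partly from all 47083 rows. With no filter on low counts, edgeR gave -0.80 for miR171, -0.89 for miR170 and -0.83 for the sum (adjusted p = 3.9e-05, 5.7e-05 and 6.5e-06), and the SE of miR171 was 0.15, against 0.27 with the filter; the cause was not tested. For miR170, scaling by library totals gave -1.01 (adjusted p = 0.036) and DESeq2 gave -0.83 (adjusted p = 0.048, with 3937 adjusted p-values undefined). With 1 library left out, values ran from -1.01 to -0.56 for miR171, from -1.08 to -0.63 for miR170 and from -1.03 to -0.59 for the sum. With 1 replicate number left out of both parts they ran from -1.11 to -0.51, from -1.18 to -0.58 and from -1.13 to -0.53. Among these fits, calls were made only where red replicate 2 was absent. The lone-number fits hold 2 libraries a part. With the replicate block, edgeR gave -0.68 for miR171, -0.78 for miR170 and -0.71 for the sum (adjusted p = 0.40, 0.22 and 0.36), and the block changed no call of these rows. For the ratio between the names the paired sign-flip test of the block gave p = 0.25, the smallest possible for 3 pairs, and for the share of microRNA reads p = 0.5, exact in both cases. The count of rows passing, 74, was 338 with the block, 254 with no filter, 153 with library totals, 135 with microRNA scaling, 46, 176 and 35 without red replicate 1, red replicate 2 and white replicate 3, and 3 and 6 without replicate number 1 and 3. Among the rows named beside the members, the call of miR166 was lost in 8 of 16 alternatives. miR394 had too few reads for the stricter filter and has no value there. With 3 libraries a part, the smallest exact p is 0.1, so library measures could not pass 0.05.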

Other observations

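One unnamed contig had almost exactly the summed counts of the 2 names. TRINITY_DN20124_c0_g1_i1 had 4965, 2108 and 4044 reads in red replicates 1, 2 and 3, where miR170 and miR171 together had 4977, 2117 and 4045. In white it had 1893, 1891 and 1855 reads, where the names together had 1903, 1912 and 1880. Its count was at least 98.7% of the summed count in each library, and lower by 1 to 25 reads. Of the 46967 contigs, it was the only one within 2% of the sum in all 6 libraries, and also the only one within 10%. It was the single row nearer to miR171 in pattern than miR170 was, and it was the only isoform of its Trinity gene in the table. This contig was chosen after its values were seen. Its normalised counts averaged 1025 ± 360.3 in the red part against 599 ± 72.5 in the white part (SD, n = 3 each). The log2 fold change was -0.78 ± 0.26 SE, with an adjusted p of 0.27 by edgeR. Without red replicate 2 it was -1.04 ± 0.13 SE, with an adjusted p of 9.0e-04 by edgeR. No sequence of the contig was used here, so whether the same reads are tabulated in both places was not tested, and the contig is not counted as a separate observation of the family.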
